A study of Rattus norvegicus with 6 samples.

Results

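The genes Ccl2, Vcam1 and Icam1 encode 3 molecules that bring leukocytes out of the blood and into tissue, and their transcripts were followed in bulk RNA sequencing of rat kidney. They were chosen by Ensembl identifier, ENSRNOG00000007159 for Ccl2, ENSRNOG00000014333 for Vcam1 and ENSRNOG00000020679 for Icam1, and all 3 were found among the 23487 genes of the count table. The libraries came from 6 male Wistar Han rats. In 3 of them sub-total nephrectomy (SNx) had been performed, in which part of the right kidney was resected and the left kidney was removed at a later operation, and the other 3 were non-operated animals (NoOp). The remnant kidney that SNx leaves behind gradually fails and becomes fibrotic. SNx animals were killed on reaching a preset level of serum creatinine or proteinuria. The paper reports that the time to reach it varied between animals of the same study. The labels give no age and no time for either group. The paper's text gives a range of days at termination for each study, but no day for single animals. Sources differ on the controls: they are non-operated in the labels and methods but sham in several figure legends and in the paper's results. The labels and methods were followed. If the controls had no operation, loss of kidney tissue and surgery as such cannot be told apart.

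Leukocytes leave the circulation in steps: they roll on the vessel wall, are activated by chemokines, adhere firmly through their integrins and then cross the endothelium. Ccl2 (monocyte chemoattractant protein 1) is the chemokine ligand that draws monocytes through the receptor CCR2. Vcam1 is a vessel wall adhesion molecule bound by the leukocyte integrin VLA-4, and Icam1 is bound by the integrins LFA-1 and Mac-1. All 3 genes are known targets of NF-kappaB in cells exposed to TNF or IL-1, and in diseased kidney tubular cells are also known to produce them.

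Because the genes share this regulator, the sequence upstream of their starts is shown for the 2 of 3 genes matched in the RefSeq promoter table, whose build is GRCr8. The letters searched were GGNNNTTCC, a loose form of the NF-kappaB site, TTCNNNGAA, the palindrome that STAT factors bind, and TATAAA, the TATA box, on both strands of the 250 bases before the start. Matches are in capitals, and positions count back from -1, the base before the promoter start. For Icam1 the gene has an earlier annotated start, and the long sequence, upstream bases 250 to 158, stops before it. The Icam1 matches in the 30-base windows lie past that earlier start, inside the annotated gene.
Vcam1, chr2:206742784-206743033, minus strand: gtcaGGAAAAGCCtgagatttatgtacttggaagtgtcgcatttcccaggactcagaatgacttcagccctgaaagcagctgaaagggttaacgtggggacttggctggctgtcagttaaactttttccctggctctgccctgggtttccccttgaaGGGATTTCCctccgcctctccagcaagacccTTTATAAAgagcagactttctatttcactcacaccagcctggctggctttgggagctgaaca
Icam1, chr8:27829595-27829687, plus strand: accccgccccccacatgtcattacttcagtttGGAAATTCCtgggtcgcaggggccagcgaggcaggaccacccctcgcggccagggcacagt
Icam1, chr8:27829686-27829715, plus strand: gtctccatccGGAAATACCgaagccctcat
Icam1, chr8:27829728-27829757, plus strand: ggcgcgaggtTTCCGGGAAagtggccccaa
Icam1, chr8:27829781-27829810, plus strand: tggcccgagacTATAAAagctgcgtgcggt

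Both promoters held the NF-kappaB type pattern. In Vcam1 it stood at -246 to -238 and at -93 to -85, and in Icam1 at -218 to -210 and at -149 to -141. The pattern occurred in 15.4% of the 33469 RefSeq windows of the same length. Both promoters also held TATAAA, at -60 to -55 in Vcam1 and at -53 to -48 in Icam1, as did 12.9% of all windows. The match at -62 to -57 on the other strand of Vcam1 overlaps the first. The STAT type palindrome was matched in Icam1, at -107 to -99, and in 7.67% of all windows. The GGNNNTTCC letters were settled with these sequences in view, and a match of letters is a description and not a site of binding.

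Ccl2 and Icam1 rose in the SNx kidney, 8.22-fold and 3.14-fold. Vcam1 averaged 2.09-fold higher and did not pass the threshold in the limma fit. Of the 3 genes, 2 therefore had an adjusted p under 0.05 and a higher level in SNx, where 19.2% of all 13644 genes tested did so, and 35.8% changed in either direction. The levels below are counts relative to library size (CPM) after scaling by edgeR's TMM factors, and they are not divided by transcript length, so they are compared between libraries and not between genes. In whole tissue, a change in the number of cells that carry a transcript and a change in transcript per cell cannot be told apart.

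Ccl2, the chemokine ligand, was scarce in the non-operated kidney. Its TMM-scaled CPM in replicates 1 to 3 was 2.63, 1.90 and 1.25 for NoOp, against 16.8, 20.9 and 9.72 for SNx. The lowest SNx library thus lay 3.70-fold above the highest NoOp library, and the groups did not overlap. These levels rested on 27, 24 and 13 estimated counts in NoOp and on 174, 270 and 92 in SNx. As CPM, the exact 95% Poisson intervals of NoOp replicates 1 to 3 were 1.73 to 3.82, 1.22 to 2.83 and 0.66 to 2.13. They overlap, and the order of the NoOp libraries is uncertain at this depth and was not tested. The interval of the lowest SNx library, 7.84 to 11.9 CPM, stays clear of them. Such intervals cover counting error only, and the counts are estimates from transcript quantification.

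Ccl2 averaged 1.92 ± 0.689 CPM in the NoOp group and 15.8 ± 5.64 CPM after SNx (SD, n = 3 each). The limma log2 fold change of Ccl2 was 3.04 (standard error 0.49, 95% interval 1.89 to 4.19), at an adjusted p of 0.00473. As a fold this interval spans 3.71 to 18.2, so the size of the rise is known only roughly. The standard error of Ccl2 was larger than that of 90.5% of the genes tested, and its mean level on the log2 scale was above that of only 20.6% of them. Its log2 fold change was higher than that of 98.0% of all genes tested.

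Icam1 was even across the non-operated kidneys and higher in every remnant kidney. For Icam1 the TMM-scaled CPM in replicates 1 to 3 was 21.1, 20.9 and 18.5 in NoOp, against 72.9, 77.9 and 44.6 in SNx. The groups did not overlap, and the lowest SNx library was 2.11-fold above the highest NoOp library. The estimated counts behind these levels were 217, 264 and 193 for NoOp and 757, 1008 and 422 for SNx. The coefficient of variation was 7.06% in NoOp and 27.6% in SNx, so the spread between animals was larger after SNx. All 3 SNx libraries lay above all 3 NoOp libraries for 2 of the 3 genes, Ccl2 and Icam1, and this held for 27.1% of all genes tested.

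Icam1 averaged 20.2 ± 1.42 CPM in the NoOp group and 65.1 ± 17.96 CPM after SNx (SD, n = 3 each). The limma log2 fold change of Icam1 was 1.65 (standard error 0.24, 95% interval 1.10 to 2.20), at an adjusted p of 0.00339. The rise of Icam1 was smaller than that of Ccl2 and more precisely measured, with a standard error of 0.24 against 0.49. By p-value Icam1 stood at rank 599 of 13644 and Ccl2 at rank 981, while by log2 fold change Ccl2 stood at rank 273 and Icam1 at rank 1060.

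Vcam1 was higher in 2 of the 3 remnant kidneys. In replicates 1 to 3 the TMM-scaled CPM of Vcam1 was 24.3, 18.8 and 15.1 for NoOp and 48.1, 55.9 and 22.1 for SNx. SNx replicate 3 lay within the NoOp range, below NoOp replicate 1, and the groups overlapped. The estimated counts of Vcam1 were 250, 237 and 157 for NoOp and 500, 724 and 209 for SNx. The 95% counting intervals of these neighbouring libraries, 19.2 to 25.3 CPM for SNx replicate 3 and 21.4 to 27.5 CPM for NoOp replicate 1, overlap too, so they could not be ordered at this depth. The intervals of the other pair of SNx libraries, 44.0 to 52.6 and 51.9 to 60.2 CPM, lie above all NoOp libraries.

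**Figure D1:**
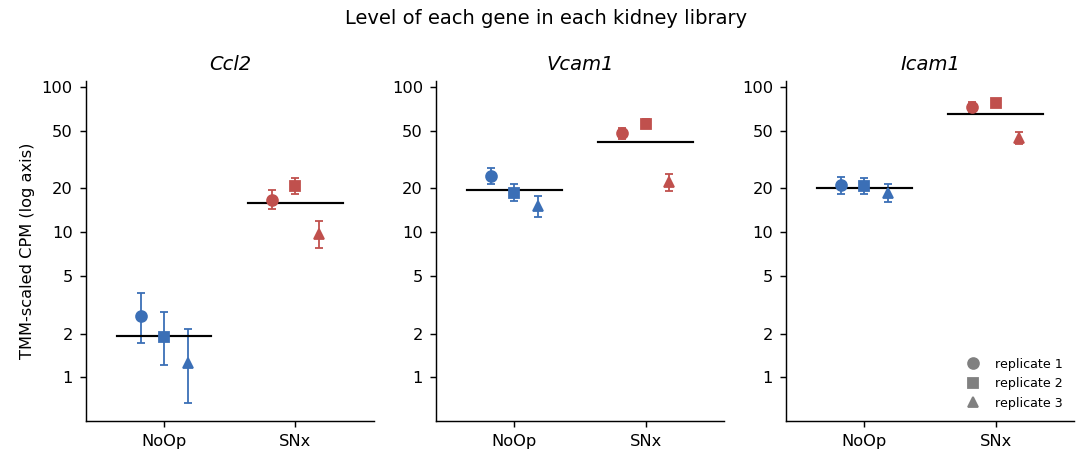
TMM-scaled CPM (log axis) of Ccl2, Vcam1 and Icam1 in each of the 3 NoOp and 3 SNx libraries, with 95% counting intervals as error bars and horizontal lines at the group means. Ccl2 and Icam1 separate the groups, whereas SNx replicate 3 of Vcam1, at 22.1, lies below NoOp replicate 1, at 24.3.

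Vcam1 averaged 19.4 ± 4.65 CPM in the NoOp group and 42.1 ± 17.7 CPM after SNx (SD, n = 3 each). The limma log2 fold change of Vcam1 was 1.06 (standard error 0.37, 95% interval 0.20 to 1.93), at an adjusted p of 0.0587 and an unadjusted p of 0.0223. The difference therefore fell short of the threshold, and the interval leaves room for a change between 1.15-fold and 3.80-fold. Among the 1768 genes with a log2 fold change at least as large as that of Vcam1, 86.9% had an adjusted p under 0.05. Without SNx replicate 3 the log2 fold change of Vcam1 was 1.44 and the adjusted p 0.00136. The call also depended on the test: edgeR's quasi-likelihood test gave an adjusted p of 0.0370 and DESeq2 gave 0.00755, both with all 6 libraries.

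**Figure D2:**
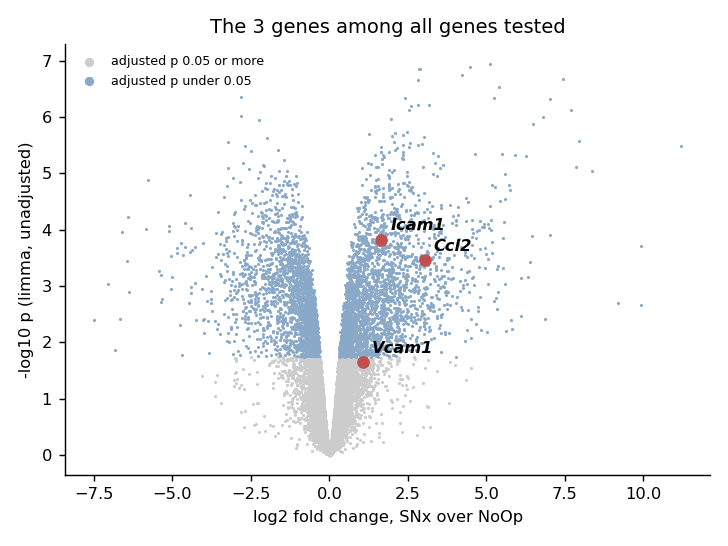
Log2 fold change of SNx over NoOp (horizontal axis) against -log10 of the unadjusted limma p (vertical axis) for the 13644 genes tested, with the 3 genes marked. Ccl2 and Icam1 lie among the genes with an adjusted p under 0.05, and Vcam1, at a log2 fold change of 1.06, lies just under that limit.

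The spread between animals differed from gene to gene. On the log2 CPM scale the SD over the 3 SNx libraries was 0.56 for Ccl2, 0.72 for Vcam1 and 0.44 for Icam1, and the part that counting error alone would give at the mean count of the group is 0.11, 0.066 and 0.053. In NoOp the SD was 0.49 for Ccl2, 0.34 for Vcam1 and 0.10 for Icam1, with counting error of 0.31, 0.098 and 0.096. The NoOp libraries thus lay closest together for Icam1.

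SNx replicate 3 had the lowest level of the SNx libraries for all 3 genes, and SNx replicate 2 the highest. Among the 2620 genes called higher, SNx replicate 3 was the lowest SNx library for 70.0% and SNx replicate 2 the highest for 50.2%. Among all genes tested these shares were 34.4% and 30.7%. How often both held for the same gene was not computed. On a log2 scale running from 0% at the mean of the NoOp libraries to 100% at the mean of SNx replicates 1 and 2, SNx replicate 3 lay at 71.1% for Ccl2, at 60.2% for Icam1 and at 14.8% for Vcam1. The position of this animal thus ranged from near the NoOp mean for Vcam1 to well over halfway for Ccl2. Left out of the limma fit, the log2 fold change was 3.31 for Ccl2 and 1.89 for Icam1, with adjusted p of 0.000434 and 0.000198.

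Library titles carry running numbers that form 2 ranges, which the labels do not explain. The lower range holds SNx replicates 1 and 2 with NoOp replicate 1, and the upper range holds SNx replicate 3 with NoOp replicates 2 and 3. Within the lower range the log2 level of SNx exceeded that of NoOp by 2.75 for Ccl2, 1.83 for Icam1 and 1.09 for Vcam1. Within the upper range the differences were 2.52, 1.17 and 0.39. All 3 genes were higher in SNx within both ranges, with the smaller difference in the upper one, and with 1 library of a group in each range these differences have no test. With the range as a term in the limma model the log2 fold changes were 2.71 for Ccl2, 1.50 for Icam1 and 0.79 for Vcam1, with adjusted p of 0.00297, 0.00323 and 0.0246.

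**Figure D3:**
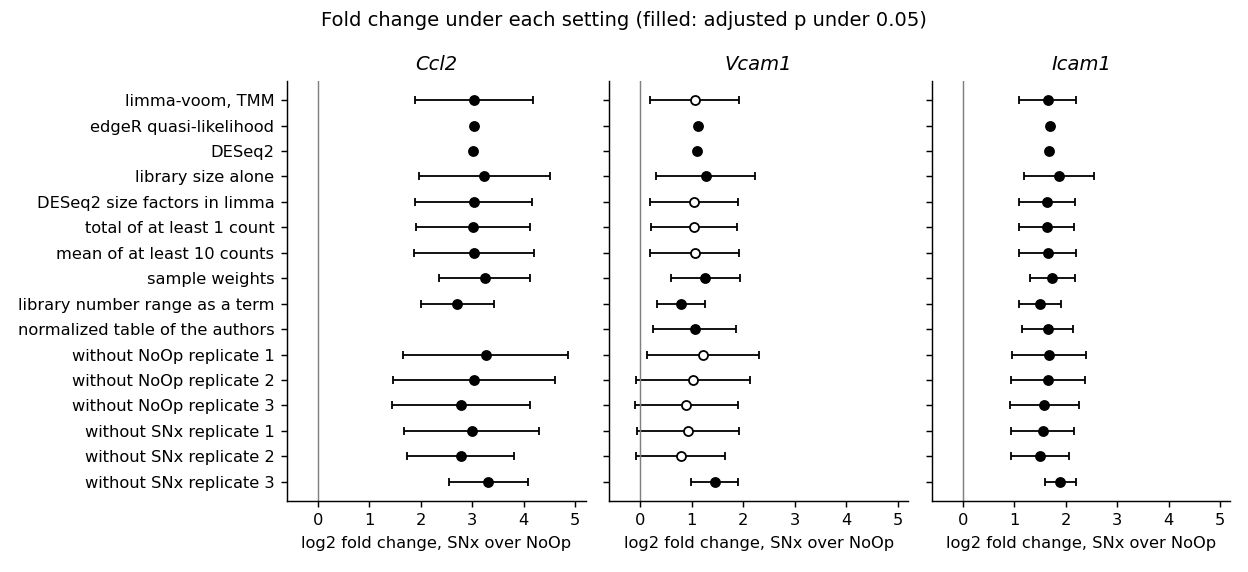
Log2 fold change of SNx over NoOp (horizontal axis) for each gene under each analysis setting (rows), with 95% intervals where the method gives them. Filled points have an adjusted p under 0.05, which holds in every row drawn for Ccl2 and Icam1 and in 7 of the 16 rows for Vcam1.

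The authors' normalized table was used as a check for 2 of the 3 genes, Vcam1 and Icam1. Ccl2, which had the largest fold change of the 3, has no values in it and rests on the count table alone. On its log2 CPM scale Vcam1 was 4.24 ± 0.35 in NoOp and 5.30 ± 0.70 in SNx, and Icam1 was 4.33 ± 0.10 and 5.98 ± 0.43 (SD, n = 3 each). In that table too, 2 of the 3 SNx libraries lay above all NoOp libraries for Vcam1, and 3 of 3 for Icam1. Limma with a mean-variance trend on this table gave a log2 fold change of 1.06 with an adjusted p of 0.0469 for Vcam1, and 1.65 with an adjusted p of 0.00204 for Icam1. Vcam1 thus passed the threshold on the authors' values at nearly the same size of change. These values are not independent of the counts. With each library centred, they differed from the counts between the groups by 0.0095 for Vcam1 and -0.0057 for Icam1 (log2). The fit on them also used fewer genes and no voom weights.

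Ratios between the genes within a library were compared, because they need no scaling between libraries and show whether the 3 transcripts changed by unlike amounts. The log2 ratio of Ccl2 to Vcam1 counts was -3.34 ± 0.19 for NoOp and -1.37 ± 0.18 for SNx (SD, n = 3 each), a difference of 1.96. Library by library, in replicates 1 to 3, the ratio was -3.19, -3.28 and -3.54 for NoOp against -1.52, -1.42 and -1.18 for SNx. SNx replicate 3, the lowest SNx library for either gene, had the highest ratio.

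The log2 ratio of Ccl2 to Icam1 was -3.42 ± 0.43 for NoOp and -2.07 ± 0.15 for SNx (SD, n = 3 each), a difference of 1.35. The log2 ratio of Vcam1 to Icam1 was -0.083 ± 0.26 for NoOp and -0.70 ± 0.28 for SNx (SD, n = 3 each), a difference of -0.61. Relative to the other two transcripts, Ccl2 was thus higher in all 3 SNx libraries than in any NoOp library, and Vcam1 relative to Icam1 was lower in all 3. For Vcam1 to Icam1 the gap was narrow, from -0.30 in NoOp replicate 3 to -0.48 in SNx replicate 2. Whether it exceeds counting error was not tested. How often the ratios of other gene pairs separate the groups was not computed. Of single genes tested, 27.1% had all 3 SNx libraries above all 3 NoOp libraries. The exact two-sided permutation p was 0.1 for each of the 3 ratios, 0.1 also after Benjamini-Hochberg adjustment over them, and a comparison of 3 with 3 libraries cannot go below 0.1.

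**Figure D4:**
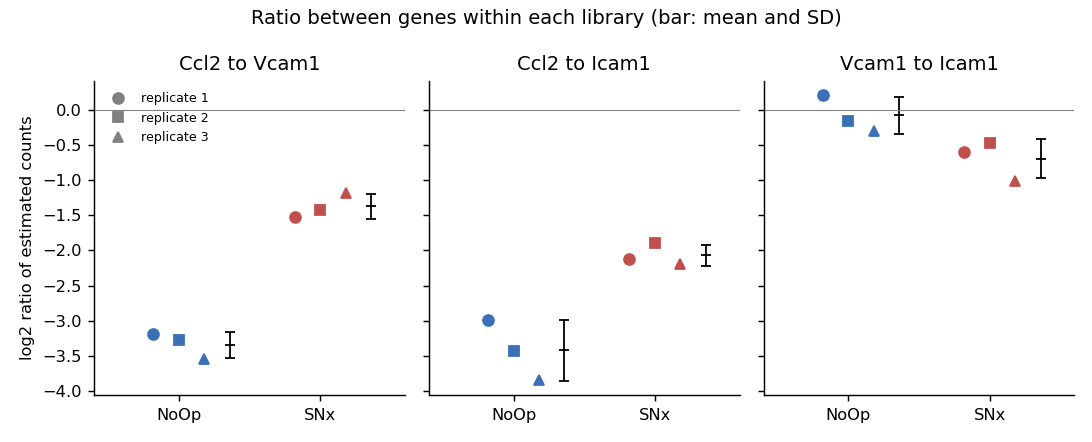
Log2 ratio of estimated counts between pairs of the 3 genes (vertical axis) in each NoOp and SNx library, with the mean and SD of each group beside the points. The groups do not overlap in any of the 3 panels, though they come close for Vcam1 to Icam1. How often other gene pairs do so was not computed. The largest shift, 1.96, is that of Ccl2 to Vcam1.

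Genes with the most similar pattern were sought by Pearson's r of log2 CPM over the 6 libraries among genes with a mean log2 CPM of at least 1. For Ccl2 and Icam1 the values mostly reflect the difference between the groups. For Vcam1, whose groups overlap, they also depend on the order of the libraries within each group. All are given without a test. The closest was ENSRNOG00000005623 for Ccl2 (r = 0.9992), ENSRNOG00000001501 for Vcam1 (r = 0.998) and ENSRNOG00000054890 for Icam1 (r = 0.9997), all named by identifier because the sources used here pair these identifiers with no symbol. The first and the third rose by 0.47 and 1.70 on the log2 scale (limma adjusted p of 0.0121 and 0.00256), and ENSRNOG00000001501 had a log2 fold change of 0.35 and a limma adjusted p of 0.174. An r of at least 0.95 was shared by 993 of 12492 genes with Ccl2 and by 1164 with Icam1, but by 289 with Vcam1. The profile of Vcam1, with 1 remnant kidney near the NoOp level, was the least common of the 3. A gene that only separates the groups follows Vcam1 less closely than Ccl2 or Icam1, so these counts are not like for like.

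The libraries held from 9572955 to 13140864 estimated counts, with all SNx totals below all NoOp totals. The TMM factors ran from 0.884 to 1.21. When libraries were scaled by their totals only, the median log2 fold change over the genes tested moved from 0.015 to 0.24, and Ccl2, Vcam1 and Icam1 had log2 fold changes of 3.23, 1.27 and 1.87. Since no symbols were paired with the other identifiers, markers of kidney, endothelial and immune cells, the receptor and integrin partners and the other genes of the pathway were not analysed here, and the labelled tissue was not checked against its markers.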

How the data were processed

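Strand-specific, paired-end libraries of kidney RNA were analysed, 3 SNx and 3 NoOp, grouped by the treatment label. PolyA RNA is given as the molecule in the labels, whereas the extraction protocol and the study's methods describe depletion of ribosomal RNA. Replicates were numbered in order of deposition and pair no animals. Per the study's methods and the submitters' processing notes, transcripts were quantified with Salmon on the rn6 transcriptome, summarised per gene with tximport and voom transformed in limma. The annotation release, the Salmon version and the gene filter are not given in the sources used here.

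The main table holds the authors' deposited estimated counts per gene as whole numbers (23487 genes). The deposited normalized table holds log2 CPM values for 12135 genes. The 12 single-library files equalled their columns in these tables to within rounding of the last digits.

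A filter on low counts (filterByExpr, edgeR 4.0.16, minimum count 10, minimum total 15) left 13644 genes. Counts were TMM scaled and voom transformed, and limma 3.58.1 (R 4.3.3) was run with the group alone in the model. Two-sided p-values were adjusted over these genes by the Benjamini-Hochberg method, and 0.05 was the threshold. Log2 CPM levels used a prior count of 2, and ratios used 0.5 added to each count. Intervals of counts are exact Poisson intervals at 95%. Per the study's methods each group had 3 rats, so each library was taken as 1 animal. The fitting code was checked on simulated counts, with the same dispersion for every gene and larger changes than that of Vcam1. Such a check does not bear on calls near the threshold.

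The alternatives were edgeR's quasi-likelihood test, DESeq2 1.42.0, other scalings and filters, sample weights, the normalized table, the range of the library numbers as a term, an offset of 5 counts for the ratios, and leaving out each library. The genes, lists and alternatives were chosen with earlier results of these data known. The naming rule covered the 3 genes, their receptor and integrin partners, 3 genes of each pathway list and the 3 genes most alike to each. Since the identifiers could not be paired with symbols, the partners and lists were not analysed, and the most alike genes were limited to 1 for each of the 3. RNA integrity of single libraries was not analysed here. The study's methods report integrity estimates over a wide range for all its samples, reaching low values. Near-identical gene copies were not analysed. Promoter sequences are from RefSeq (GRCr8), a later build than the rn6 of the counts, and no coordinate was carried between them.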

Additional observations from a re-analysis of the deposited data

How the results depend on the processing

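With all 6 libraries, Ccl2 kept its direction and an adjusted p under 0.05 in 8 of 8 other settings (the normalized table gave no value for it), with log2 fold changes from 2.71 to 3.24 and adjusted p from 4.97e-12 to 0.00531, and Icam1 in 9 of 9, from 1.50 to 1.87 and from 5.92e-10 to 0.00372. Vcam1 kept its direction throughout, but 6 of 9 settings brought it past the threshold: the log2 fold change was 1.12 with edgeR's quasi-likelihood test, 1.10 with DESeq2, 1.27 with library size alone, 1.27 with sample weights, 0.79 with a term for the title number range and 1.06 with the authors' normalized table, at adjusted p of 0.0370, 0.00755, 0.0462, 0.0100, 0.0246 and 0.0469. Its adjusted p was 0.0612 with DESeq2 size factors in limma, 0.0656 with every gene of at least 1 count and 0.0601 with a mean of at least 10 counts. The cause was not tested.

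With 1 library left out, log2 fold changes ranged from 2.77 to 3.31 for Ccl2, 0.79 to 1.44 for Vcam1 and 1.49 to 1.89 for Icam1. Ccl2 and Icam1 stayed under the threshold in each of the 6 fits. Vcam1 passed it only without SNx replicate 3, and its adjusted p was between 0.0896 and 0.171 in the other 5 fits. The cause was not tested. The number of all genes under the threshold was 4891 and ranged from 2857, without NoOp replicate 3, to 5764, without SNx replicate 3, with 3124 without NoOp replicate 2. The shift of the Ccl2 to Vcam1 ratio was 1.73 with the larger offset and 1.86 to 2.04 with 1 library left out, that of Ccl2 to Icam1 1.12 and 1.14 to 1.57, and that of Vcam1 to Icam1 -0.61 (-0.60 in the normalized table) and from -0.72 to -0.45, with permutation p of 0.1 or 0.2, which cannot reach the threshold in this design. No paired analysis was made, because the SNx and NoOp rats were separate animals and the labels pair none of them.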
